A study of Homo sapiens with 32 samples.

Results

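RNA contacts of the export adaptor Alyref were compared with those of the export receptor Nxf1, gene by gene and region by region, in iCLIP libraries from human cells. iCLIP joins protein to RNA with UV light, recovers the protein with an antibody and reads the cDNAs that stop at the crosslinked base, so that each distinct cDNA, called a tag, marks 1 contact. The libraries were chosen by their labels: Alyref-FLAG 1 to 3 and Nxf1-FLAG 1 to 3, which are 6 of the 12 libraries and 16 of the 32 sequencing runs of the series. The other 6 libraries came from cells with FLAG-tagged Chtop and from cells with the FLAG tag only (Control). The Control libraries are used below as the background measured in the same way.

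All cells were HEK293T FlpIn cells, a line of human embryonic kidney origin in which a transgene is placed at a fixed recombination site. Each carried the tagged protein under a tetracycline-inducible promoter, beside the cells' own untagged protein, and 10 µg of anti-FLAG antibody was used. Induction lasted 48 h in both groups, with 10 ng/mL of tetracycline in the Alyref cells and 5 ng/mL in the Nxf1 cells. The induction of the Control cells is not given in the sources used here, and the sources do not say whether the 3 libraries of a group came from separate cultures, so p-values measure the spread between these libraries.

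Alyref is a subunit of TREX, the complex that is loaded onto mRNA during transcription and splicing. It contacts the cap-binding complex at the 5′ end and the exon junction complex, which is deposited upstream of spliced junctions. Nxf1, with its partner Nxt1, is the receptor that carries the mRNA through the nuclear pore, and it binds RNA weakly until adaptors such as Alyref hand the RNA over. The comparison asks where on a transcript, and on which transcripts, the contacts of adaptor and receptor differ.

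After tags on the mitochondrial chromosome were left out, the Alyref libraries held 81133, 630540 and 602486 tags and the Nxf1 libraries 8105, 118540 and 178745. The Control libraries held 6998, 46384 and 36804. Nxf1 1 is thus the shallowest of the 6 libraries compared, and a count of 0 in it carries little weight, since 0 allows 3 counts (counting error only). Between 66.6% and 86.9% of the tags of the 6 libraries fell in exactly 1 annotated gene. On many of the measures below Control 1 lay near Alyref while Control 2 and Control 3 lay near Nxf1, and Control values therefore stand beside the results. How far background contacts take part in a difference was not tested.

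In transcripts with at least 3 exons, Alyref tags lay mostly in middle exons and Nxf1 tags mostly in last exons. Last exons took 32.3%, 30.4% and 32.8% of the exonic tags in Alyref 1, 2 and 3, and 51.2%, 50.3% and 49.9% in Nxf1 1, 2 and 3. The groups did not overlap, and the means of 31.9% ± 1.25 and 50.5% ± 0.642 (SD, n = 3 each) differed by -18.6 points. The Control libraries spanned the gap, at 35.5%, 45.2% and 53.4%. Middle exons took 57.6%, 59.6% and 57.7% in Alyref against 42.5%, 41.7% and 42.4% in Nxf1, with Control at 55.9%, 45.5% and 37.3%. First exons took 10.1%, 9.91% and 9.44% in Alyref and 6.29%, 7.99% and 7.72% in Nxf1. All 3 shares separated the groups completely. With 3 libraries against 3, the two-sided exact permutation test cannot go below p = 0.1, or 0.202 after Benjamini-Hochberg adjustment over the 83 library measures computed, and each of these shares reached those values. Of the 83 measures, 41 did not overlap between Alyref and Nxf1, so a separation is common among them. In 34 of the 41 the range of the Control libraries overlapped that of Nxf1.

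**Figure D1:**
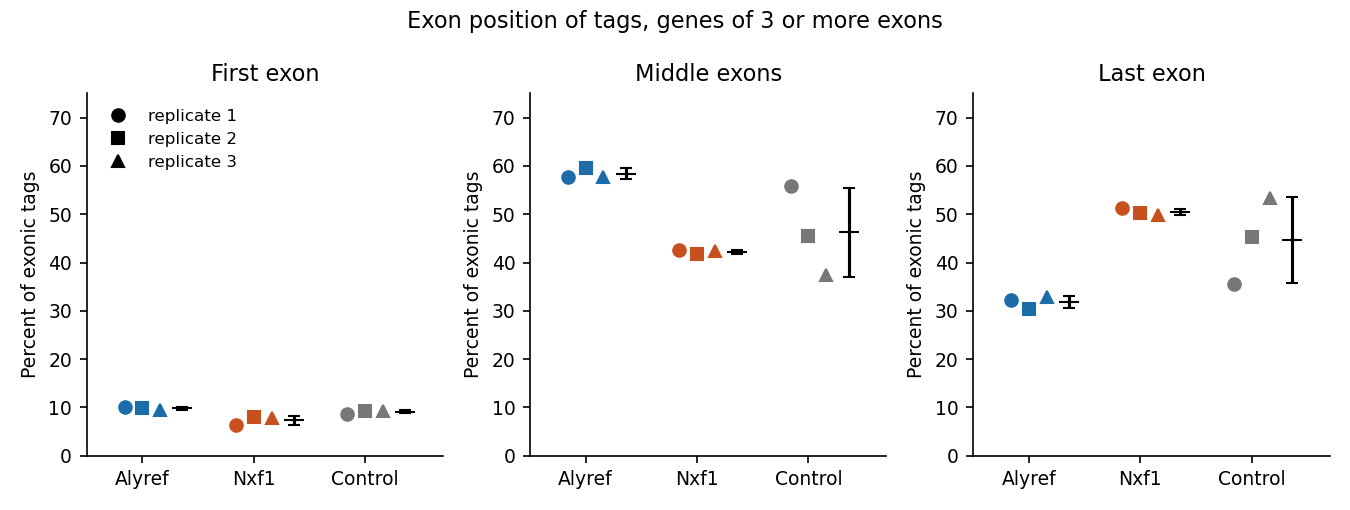
Percent of exonic tags in the first, middle and last exons of transcripts with at least 3 exons (y axis) for Alyref, Nxf1 and Control. Points are libraries, with 1 symbol shape per replicate number, and bars give the mean with its SD. The Nxf1 libraries sit near 50% in last exons and the Alyref libraries between 30.4% and 32.8%, while the Control libraries spread from 35.5% to 53.4%.

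Per nucleotide the last exon held fewer tags than the middle exons in Alyref and nearly as many in Nxf1. Expressed as log2, the density of tags in last exons over that in middle exons was -1.32, -1.46 and -1.30 in Alyref and -0.22, -0.21 and -0.25 in Nxf1. The Control libraries ran from -1.14 to 0.03. The ratio of middle over first exons overlapped between the groups, at 0.00 to 0.10 in Alyref and -0.13 to 0.24 in Nxf1. Last-exon density thus separated adaptor and receptor, and middle against first exons did not.

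The larger last-exon share of Nxf1 was seen in each of 3 classes of exon number. In transcripts of 3 to 9 exons it differed by -13.2 points (Alyref 52.0%, 51.2% and 53.4%, Nxf1 69.4%, 62.7% and 63.9%). In transcripts of 10 to 19 exons the difference was -18.0 points, and in those of 20 or more exons -13.3 points (Alyref 17.7%, 16.4% and 18.0%, Nxf1 31.4%, 30.7% and 30.0%). None of the 3 classes overlapped between the groups. These 3 shares were among 14 of the 83 library measures that were chosen after the values had been seen.

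The mix of genes was then set aside in a calculation. Each gene's last-exon share was taken from the Alyref libraries, leaving out the library in question, and weighted by the exonic tags the gene held in each library, over genes with at least 20 tags in that reference. A library that places its tags within genes as Alyref does would have the calculated share, which makes the Alyref values close to it by construction. The calculated share was 30.5%, 29.6% and 29.2% in Alyref and 35.0%, 36.7% and 36.7% in Nxf1. The observed shares of the same genes were 31.3%, 27.9% and 30.7% in Alyref and 50.6%, 49.1% and 48.8% in Nxf1. Observed minus calculated was 0.80, -1.73 and 1.54 points in Alyref and 15.5, 12.4 and 12.1 points in Nxf1, with Control at 2.83, 10.3 and 16.1. Nxf1 thus held more last-exon tags than its mix of genes gave, and so did the Control libraries.

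Single genes were tested against their own total with edgeR's diffSpliceDGE, so that the amount of an RNA cancels. Of 685 regions within genes, 14 held a larger share of their gene's tags in Alyref (2.04%) and 3 in Nxf1 (0.438%) at an adjusted p under 0.05. All 14 were coding sequences (CDS), and all 3 were introns. The relative log2 difference was above 0 in 262 of 278 CDS regions tested and in 12 of 274 introns, with medians of 0.64 and -0.52. The 128 3′ untranslated regions (UTRs) had a median of -0.03 and none passed. By exon position, 14 of 664 parts were higher in Alyref (2.11%), all of them middle exons, and 2 in Nxf1 (0.301%), both introns. Relative to the gene's total, the median log2 difference was 0.67 in 249 sets of middle exons, 0.06 in 135 last exons and -0.51 in 266 introns, so that no last exon passed and 75 of the 135 lay above 0. This test sets each part against all tags of the gene, introns included, and the last-exon shares above are of exonic tags only. Parts of a gene share that total, so a larger share of the CDS or middle exons goes with a smaller share elsewhere in the gene, mostly in introns. The opposite signs of these parts are therefore not independent results. With a replicate block, the counts were 12 and 0 for regions and 13 and 0 for exon positions, so that all intron calls toward Nxf1 were lost. The counts also depend on single libraries. By edgeR, no region or exon position passed in either direction without Nxf1 2 or without Nxf1 3, although 59 and 18 regions were higher in Alyref at an unadjusted p under 0.05. Toward Alyref and Nxf1, the region counts were 0 and 0 without Alyref 2, 3 and 0 without Alyref 1, 6 and 0 without Alyref 3 and 30 and 16 without Nxf1 1. In the same order of libraries, the exon position counts were 1 and 0, 10 and 0, 7 and 0, and 27 and 13.

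TRMT11, which encodes the catalytic subunit of a tRNA methyltransferase, had the largest CDS difference. Its CDS held 13, 90 and 83 of 26, 227 and 253 tags in Alyref 1, 2 and 3, which is 36.8% together. In Nxf1 the CDS held 0 of 0, 0 of 20 and 0 of 52 tags, and 0 of 72 allows a share of up to 4.17% (edgeR adjusted p = 0.00054). AHI1, a gene of the primary cilium, had 49.6% of its Alyref tags in the CDS against 0 of 25 Nxf1 tags, which allows up to 12%. In LMBR1 the CDS share was 39.0% in Alyref and 2.27% in Nxf1. In CCAR1, a coactivator of transcription, the shares were 59.2% and 6.38%, and in ATRX, a chromatin remodeller, 45.5% and 7.14%. LRBA, a gene of vesicle traffic, had 19, 179 and 164 CDS tags of 30, 337 and 284 in Alyref and 0, 6 and 4 of 0, 39 and 69 in Nxf1, or 55.6% and 9.26%. In the 3 Control libraries together the CDS held 3 of 36 tags in TRMT11 (8.33%), 4 of 23 in AHI1 (17.4%), 5 of 32 in LMBR1 (15.6%), 1 of 21 in CCAR1 (4.76%), 4 of 27 in ATRX (14.8%) and 1 of 35 in LRBA (2.86%), which is nearer to Nxf1 than to Alyref in each. The remaining called CDS regions were those of UGGT2, WRN, ITPR2, BRIP1, NBEA, RBM26, NAA25 and POLA1. The 3 introns with larger shares in Nxf1 belonged to SRSF11, an SR family splicing factor (17.1% of the gene's tags in Alyref, 61.5% in Nxf1), CPLANE1 (17.2% and 61.8%) and DDX17, an RNA helicase (6.39% and 22.0%). The Control shares were 21 of 30 tags in SRSF11 (70%), 14 of 30 in CPLANE1 (46.7%) and 8 of 40 in DDX17 (20%), also nearer to Nxf1. With the replicate block the edgeR adjusted p was 0.18 for SRSF11, 0.081 for CPLANE1 and 0.14 for DDX17, and the CDS calls of NAA25 (0.13) and POLA1 (0.11) were lost too.

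Along the whole spliced transcript, Alyref contacts lay further 5′. The mean relative position of an exonic tag, from 0% at the start to 100% at the end, was 39.4%, 39.0% and 39.9% in Alyref and 48.1%, 46.3% and 46.3% in Nxf1. The means were 39.4% ± 0.457 and 46.9% ± 1.04 (SD, n = 3 each), and Control lay at 40.2%, 44.6% and 48.1%. The first 5% of the transcript held 10.7%, 10.7% and 10.4% of Alyref tags and 5.29%, 6.92% and 6.33% of Nxf1 tags. The first 200 nt, nearest the cap, held 10.4%, 10.2% and 10.1% in Alyref and 4.28%, 7.97% and 6.99% in Nxf1, with Control at 8.82%, 9.13% and 8.30%. Neither measure overlapped between Alyref and Nxf1, while the Control libraries lay between the groups over the first 200 nt. The last 200 nt held 3.65%, 3.18% and 3.56% in Alyref and 4.78%, 4.65% and 4.40% in Nxf1.

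**Figure D2:**
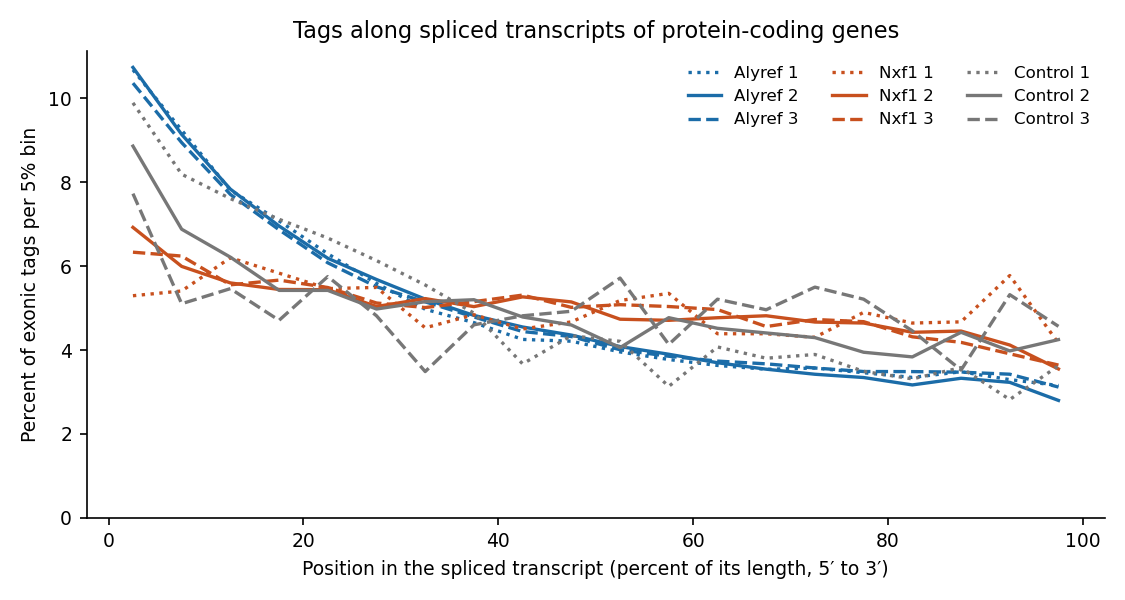
Percent of exonic tags in 20 bins of 5% of the spliced transcript, from its start at the left to its end at the right, with 1 line per library of Alyref, Nxf1 and Control. Alyref starts at 10.4% to 10.7% in the first bin and Nxf1 at 5.29% to 6.92%, and the order is turned at the 3′ end, where the last bin holds 2.80% to 3.15% and 3.55% to 4.16%.

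The shift was also present inside coding sequences. The mean relative position of CDS tags was 42.5%, 43.2% and 43.1% in Alyref and 46.5%, 48.1% and 48.3% in Nxf1, with no overlap. 5′ UTRs held 3.13%, 3.44% and 2.82% of all tags in Alyref and 2.38%, 1.96% and 0.882% in Nxf1. The Control libraries had 2.53%, 1.05% and 0.552%. CDS shares of all tags overlapped, at 25.2% ± 2.83 in Alyref and 14.9% ± 7.91 in Nxf1 (SD, n = 3 each, exact permutation p = 0.2, adjusted 0.35), and so did those of 3′ UTRs and introns.

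Around spliced junctions, tags were aligned over 73006 internal junctions between exons of at least 100 nt, each junction weighted equally. From 75 to 24 nt upstream of the junction, which ends at the usual site of the exon junction complex, Alyref had 28.6%, 29.9% and 29.2% of the signal within 100 nt on either side. Nxf1 had 27.4%, 25.9% and 27.2%. The groups did not overlap, with means of 29.2% ± 0.619 and 26.8% ± 0.783 (SD, n = 3 each), but Control values of 28.9%, 28.7% and 25.5% covered both. The highest point of the smoothed Alyref profile was at 31, 32 and 30 nt upstream, at 0.744%, 0.670% and 0.634% per nt. The 3 Nxf1 profiles peaked at different places, 49 nt upstream, 6 nt downstream and 37 nt upstream, on 901, 8305 and 6230 tagged bases against 10233, 96128 and 73399 in Alyref. The Alyref maxima thus lay within 3 nt of each other, and those of the shallower Nxf1 libraries did not. Control 1 and Control 2 both peaked 39 nt upstream, at 0.723% and 0.700% per nt on 768 and 1652 tagged bases. Control 3 peaked 5 nt downstream, at 0.824% on 579. Agreement on an upstream peak was thus not particular to Alyref.

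**Figure D3:**
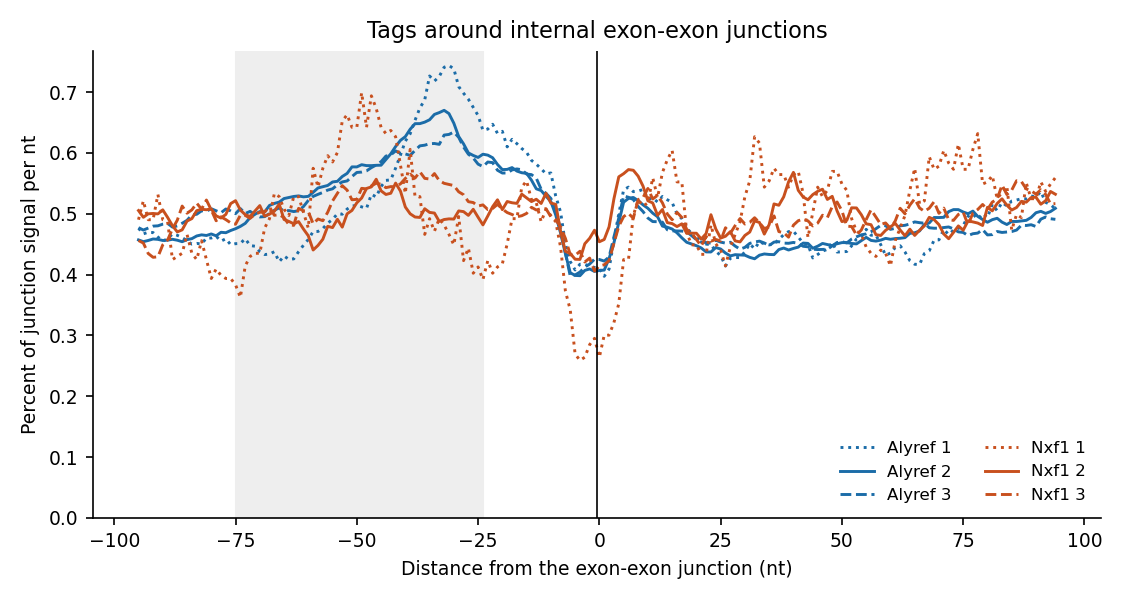
Percent of junction signal per nt (y axis, smoothed over 11 nt) against the distance from the exon junction in nt (x axis, negative is upstream), 1 line per Alyref and Nxf1 library. The grey band marks 75 to 24 nt upstream, where Alyref held 28.6% to 29.9% and Nxf1 25.9% to 27.4% of the signal.

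Among middle exons, long ones took more of the Nxf1 tags. Middle exons of 500 nt or longer held 9.06%, 8.88% and 9.17% of middle-exon tags in Alyref and 23.8%, 12.7% and 12.7% in Nxf1, and 9.78%, 11.4% and 17.6% in Control. Middle exons under 100 nt held 21.2%, 20.9% and 21.1% in Alyref and 11.4%, 16.3% and 16.95% in Nxf1. Middle exons of 100 nt to under 200 nt also took more in every Alyref library than in any Nxf1 library, and those of 200 nt to under 500 nt took more in every Nxf1 library.

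A gene's level of tags depends on the amount of its RNA as well as on binding, and RNA amounts in the separate lines were not compared here. Differences between genes were tested first on exonic tags, with edgeR's quasi-likelihood test. Of 900 genes tested, 102 were higher in Alyref (11.3%) and 162 in Nxf1 (18%) at an adjusted p under 0.05. Gene values are given as CPM, here tags per 1000000 exonic tags in the tested genes after TMM scaling, which sets the bulk of genes equal between libraries. On this scale 1 tag is 503 CPM in Nxf1 1 and 9.56 CPM in Alyref 2, and a count of 0, which allows 3 counts, may stand for up to 1509 CPM in Nxf1 1, 285 in Nxf1 2 and 373 in Nxf1 3. The split between directions depended on this scaling: with library sizes from the exonic tags of all genes and no further scaling, an alternative chosen after seeing the data, 235 were higher in Alyref and 103 in Nxf1. That scaling moved the median log2 difference of all genes from 0.07 to 0.48. It kept 205 of the 264 calls, and none of the 264 changed sign. Without a filter on low counts, 517 were higher in Alyref and 213 in Nxf1. The counts were 193 and 248 without Nxf1 1, 41 and 99 without Nxf1 2 and 72 and 96 without Nxf1 3. The 6 libraries did not overlap in 86 of the 102 and 52 of the 162. A count of 0 in Nxf1 1 makes a gene higher in Nxf1 overlap but not one higher in Alyref, so these counts cannot be set against each other. The share without overlap among all 900 genes was not computed. The mean Control level was above the mean Nxf1 level in 75 of the 102 genes higher in Alyref, and above the mean Alyref level in 4. It was above the mean Alyref level in 116 of the 162 genes higher in Nxf1, and above the mean Nxf1 level in 24. These genes were called for a lower level in 1 group, and the same counts over all 900 genes were not computed. A single tag is 652, 341.5 and 465 CPM in Control 1, 2 and 3.

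The 10 protein-coding genes with the largest differences toward Alyref had 8 to 88 exons. TRMT11 (chr6:126307625-126524963, plus strand, hg19, 13 exons) had 13, 93 and 92 exonic tags in Alyref and 0, 1 and 0 in Nxf1, with 1, 3 and 0 in Control. Its log2 difference was 4.26 (SE 0.94, edgeR adjusted p = 0.00051). MTG1 (chr10:135207598-135236024, plus strand, 11 exons), a GTPase of the mitochondrial ribosome, had 13, 103 and 89 against 0, 1 and 1 tags and a log2 difference of 3.34 (SE 0.74, edgeR adjusted p = 0.00049). In neither gene did the groups overlap. ZDHHC17, a palmitoyltransferase with 17 exons, stood at 1193, 1223 and 1095 CPM in Alyref and at 503, 95.0 and 0 CPM in Nxf1, where the 503 CPM of Nxf1 1 is a single tag. WDR59, a subunit of the GATOR complex, had 11, 106 and 61 against 0, 1 and 0 exonic tags, with 0, 6 and 0 in Control, where the 6 tags of Control 2 are 2049 CPM against 875, 1013 and 718 CPM in Alyref. AHI1 had 12, 97 and 59 tags against 0, 0 and 1, with 1, 3 and 1 in Control. KNTC1, a kinetochore gene of 64 exons, had 44, 431 and 380 tags in Alyref and 5, 5 and 3 in Nxf1 (log2 difference 2.66, SE 0.44, edgeR adjusted p = 4.2e-06). The cyclin gene CCNL2 had 33, 239 and 186 against 3, 2 and 2. Control held 3, 6 and 0 tags of KNTC1 and 3, 5 and 0 of CCNL2.

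FNBP4 (log2 difference 2.93), SPG7, a protease of the mitochondrial inner membrane (2.73), the helicase gene WRN (2.65) and the histone acetyltransferase gene KAT2A (2.57) were also called. NPIPB4, ANKRD36 and ANKRD36C had large differences too, but they belong to families of near-identical copies, and only uniquely mapped reads were kept, so the gene of origin is uncertain. NPIPB4 had 1, 37 and 45 tags in Alyref and none in Nxf1, which is at least 2.81-fold higher when Nxf1 is set to 3 counts over the group. The Control libraries held 1, 1 and 3 NPIPB4 tags, or 652, 341 and 1395 CPM against 79.5, 354 and 530 CPM in Alyref.

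Of the 10 protein-coding genes with the largest differences toward Nxf1, all but PLCG2 (33 exons) had 4 to 9 exons. TUBB, a beta-tubulin of 4 exons (chr6:30685212-30693315, plus strand, hg19), had 8, 48 and 41 exonic tags in Alyref and 0, 48 and 38 in Nxf1. That is 636, 459 and 483 CPM against 0, 4559 and 4726 CPM, with a log2 difference of -3.05 (SE 0.34, edgeR adjusted p = 2.3e-10). EEF1A1, the translation elongation factor (8 exons), had 79.5, 258 and 283 CPM in Alyref, 1006, 2185 and 2612 in Nxf1 and no tag in any Control library. Its 3 libraries of each group did not overlap. ACTB, beta-actin, stood at 318, 516 and 601 CPM against 0, 4559 and 3980, and SCD, a fatty acid desaturase, at 239, 354 and 400 against 0, 2945 and 2985. In TUBB, ACTB and SCD the groups overlapped through Nxf1 1, which held no tag. Control stood at 1303, 2049 and 0 CPM in TUBB, 0, 1366 and 1395 in ACTB and 0, 1024.5 and 1395 in SCD. EIF5A (log2 difference -2.78), the chaperone gene CALR (-2.72), PLCG2 (-2.68), MOB1A (-2.66), TUBA1B (-2.61) and NUCKS1 (-2.61) completed the 10. Processed pseudogenes of EEF1A1, TUBB, ACTB and TUBA1B share much of their sequence, so their unique counts may be incomplete in all libraries.

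**Figure D4:**
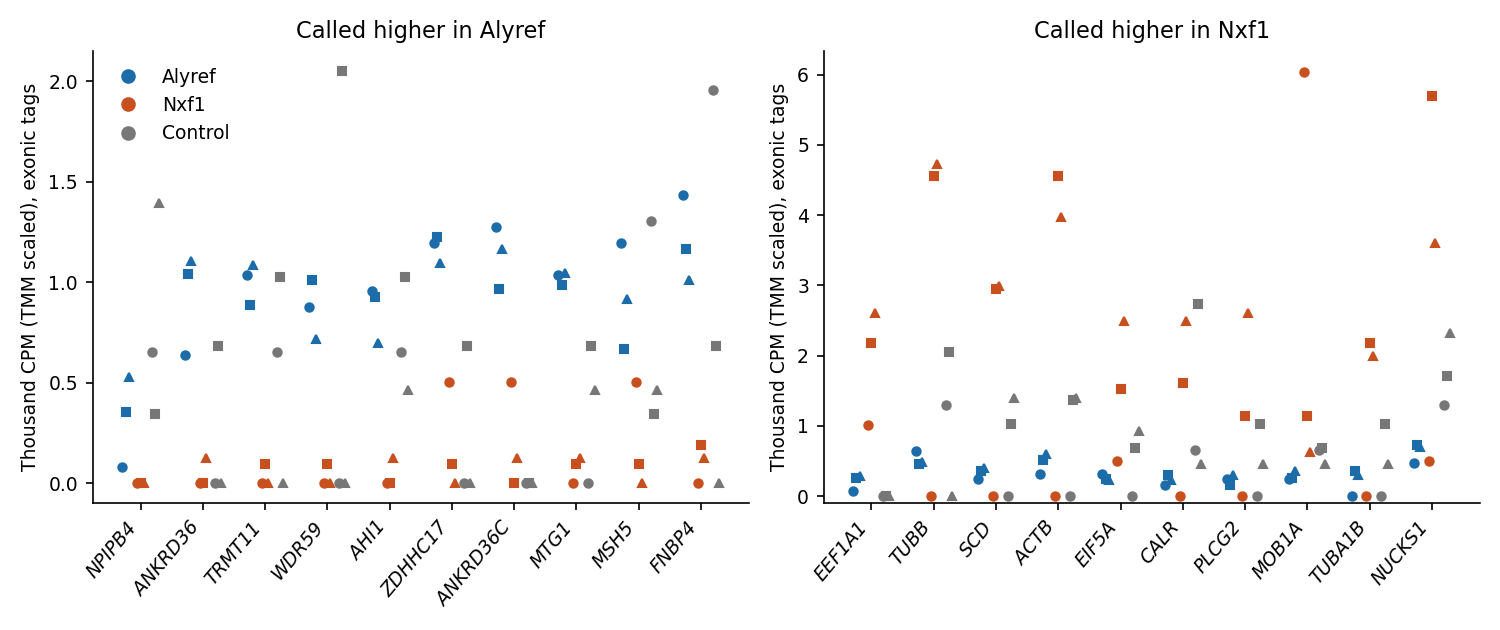
Exonic level in units of 1000 CPM (y axis) in each library for the 10 protein-coding genes with the largest differences toward Alyref (left) and toward Nxf1 (right), with circles, squares and triangles for replicates 1, 2 and 3 and Control in grey. TUBB and ACTB reach 4559 CPM in Nxf1 2 and stay below 640 CPM in Alyref, while several genes on the left have Nxf1 libraries at 0.

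The 25 nt with the most tags of the higher protein show what was contacted in 3 genes of each direction. Sequences are hg19, written 5′ to 3′ on the gene's strand in DNA letters, and capitals mark bases with at least 1 tag of the protein that is higher. The first 3 are higher in Alyref and the last 3 in Nxf1.
TRMT11, CDS of exon 2 of 13, chr6:126314915-126314939, plus strand: TTgCTttTgcTTTTtggaGgTcaGT
MTG1, CDS of exon 2 of 11, chr10:135209243-135209267, plus strand: aaGCTgGtggacTgtatCaTCgaGG
ZDHHC17, CDS of exon 3 of 17, chr12:77199140-77199164, plus strand: tAtGatgTacggcAaccgGACaaaG
EEF1A1, CDS of exon 6 of 8, chr6:74228082-74228106, minus strand: ccaAtgGaagcagctggctTcactG
TUBB, 3′ UTR in exon 4 of 4, chr6:30692271-30692295, plus strand: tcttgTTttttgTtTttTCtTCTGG
SCD, 3′ UTR in exon 6 of 6, chr10:102123868-102123892, plus strand: ttataaGTTttttttttttTtttgG

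The TRMT11 window held 0, 7 and 9 Alyref tags and no Nxf1 tag, the MTG1 window 2, 6 and 5 and none, and the ZDHHC17 window 0, 6 and 3 and none. All 3 lie in early internal exons, but not every window of the genes highest in Alyref did. That of FNBP4 was in the 3′ UTR of exon 17 of 17, that of NPIPB4 in exon 8 of 8. The AHI1 window was in the 5′ UTR of exon 1 of 29. Those of WDR59, ANKRD36C, MSH5 and ANKRD36 were in the CDS of exons 5 of 26, 4 of 88, 4 of 25 and 13 of 76. The TUBB window held 1, 9 and 4 Alyref tags and 0, 5 and 10 Nxf1 tags, with 1, 1 and 0 in Control. The EEF1A1 window held 0, 3 and 2 against 1, 1 and 3, and the SCD window 0, 1 and 0 against 0, 1 and 5. The windows of TUBB and SCD lie in the 3′ UTR of the last exon and hold 18 and 19 T of 25 bases, while those of TRMT11 and EEF1A1 hold 13 and 5. Since they were picked by the tags of the higher protein, the tags are a description.

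The number of exons of a gene ordered these differences. Among 836 protein-coding genes tested on exonic tags, the median log2 difference rose from -1.13 in 10 genes of 1 exon through -0.79 in 44 genes of 2 to 4 exons, -0.77 in 113 of 5 to 9 and -0.00 in 253 of 10 to 19 to 0.50 in 416 of 20 or more. Higher in Nxf1 were 6, 16, 42, 33 and 20 of these genes, and higher in Alyref 0, 1, 2, 28 and 71. With library sizes from all genes the medians were -0.72, -0.43, -0.38, 0.41 and 0.91, and without a filter on low counts -0.25, 0.10, 0.10, 0.87 and 1.37. The sign for 2 to 9 exons thus depends on the processing. In these fits of exonic tags the lowest median stayed with 1 exon and the highest with 20 or more. With intronic tags included the medians were -0.22, -0.40, -0.25, 0.00 and 0.26. There the lowest was that of 2 to 4 exons, and the highest was again that of 20 or more. Across the 836 genes Spearman's rho with exon number was 0.45, against 0.00 with transcript length, 0.28 with summed intron length, -0.24 with 3′ UTR length and -0.11 with GC content, of which those with intron length and GC content had the opposite sign when intronic tags were included. These are descriptions across genes, which share the 6 libraries and are not independent replicates.

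The same order appears in the shares of exonic tags, which use no scaling. Single-exon genes took 0.804%, 0.685% and 0.752% in Alyref and 1.399%, 2.04% and 1.82% in Nxf1. Genes of 20 or more exons took 37.04%, 38.4% and 37.2% in Alyref and 32.8%, 23.6% and 25.03% in Nxf1, with Control at 37.9%, 29.7% and 26.8%. The means of the latter were 37.5% ± 0.74 and 27.1% ± 4.96 (SD, n = 3 each). All 5 exon-number classes separated the groups. Among CDS tags alone, genes of 20 or more exons still took 46.8%, 47.7% and 46.9% against 45.9%, 34.0% and 36.2%, without overlap. Among last-exon tags alone they took 20.7%, 21.1% and 20.9% against 21.2%, 15.1% and 15.7%, which overlapped.

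**Figure D5:**
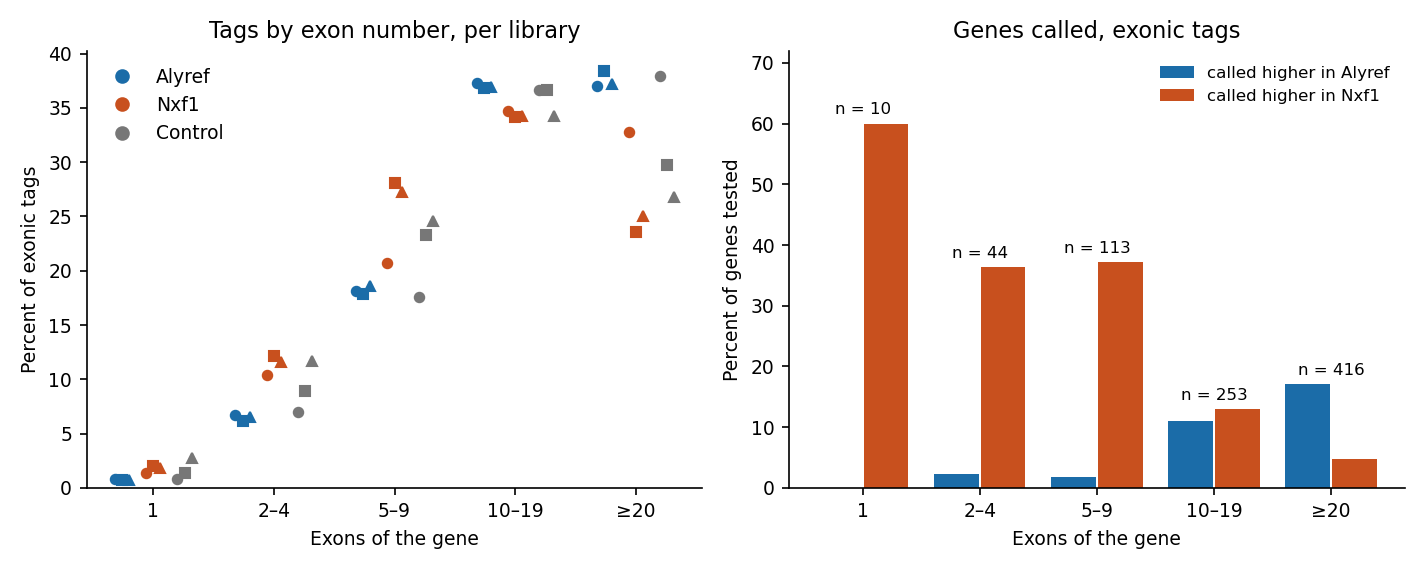
Left, percent of exonic tags (y axis) in genes of 1, 2 to 4, 5 to 9, 10 to 19 and 20 or more exons in each Alyref, Nxf1 and Control library. Right, percent of the 10, 44, 113, 253 and 416 protein-coding genes tested in each class that were called higher in Alyref or higher in Nxf1, with Nxf1 calls in 42 of 113 genes of 5 to 9 exons and Alyref calls in 71 of 416 genes of 20 or more.

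RNA classes follow the gene types of the annotation, and the ribosomal RNA class here also takes in ribosomal RNA pseudogenes. By RNA class, each called gene outside the protein-coding class was higher in Nxf1 on exonic tags. These were 19 of 24 small nuclear RNAs (snRNAs) tested, with a median log2 difference of -2.65, 9 of 14 miscellaneous RNAs (-2.41), 5 of 5 ribosomal RNA genes (-2.41), 8 of 16 long noncoding RNAs (lncRNAs, -1.78), both miRNA genes, 1 of 2 small nucleolar RNAs, and RMRP. Among the 836 protein-coding genes 102 were higher in Alyref and 117 in Nxf1. The direction of the snRNAs, ribosomal RNAs and lncRNAs was the same with library sizes from all genes, with medians of -2.26, -2.17 and -1.41. With intronic tags included fewer passed. Higher in Nxf1 were 9 of 22 snRNAs, 9 of 107 lncRNAs, 0 of 10 miscellaneous RNAs and 0 of 5 ribosomal RNA genes, and 1 lncRNA was higher in Alyref. The medians there were -1.62, -0.17, -1.71 and -1.67, so the size of these differences depends on which tags are counted. As a share of all tags in 1 gene the classes overlapped: snRNAs took 1.00%, 0.178% and 0.28% in Alyref, 0.783%, 0.902% and 1.06% in Nxf1 and 0.584%, 0.85% and 1.97% in Control. The snRNA level in Control was thus close to that in Nxf1, and Alyref 1 was as high.

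RNU4-2, a U4 snRNA of the spliceosome, had 1034, 420 and 459 CPM in Alyref, 1006, 6744 and 7711 in Nxf1 and 1955, 6147 and 5115 in Control (log2 difference -3.66, SE 0.31, edgeR adjusted p = 7.0e-14). RMRP, the RNA of RNase MRP, stood at 795, 592 and 789 CPM in Alyref, 1509, 6744 and 5721 in Nxf1 and 652, 5464 and 2325 in Control (log2 difference -3.01, SE 0.30, edgeR adjusted p = 1.5e-11). In the fit with intronic tags, where both genes held the same counts, the log2 differences were -2.72 for RNU4-2 and -2.16 for RMRP. RMRP did not overlap between Alyref and Nxf1, and RNU4-2 overlapped through replicate 1. Both levels in Control 2 and 3 were above every Alyref library. Among genes annotated as lncRNA, ENSG00000270103 (chr1:28975112-28975242, plus strand, hg19) is a single exon of only 131 nt. It had 1034, 315 and 318 CPM against 2013, 5414 and 5224, with Control at 1303, 1366 and 2790. ENSG00000270066 and ENSG00000270022, also annotated as lncRNA and called higher in Nxf1, are single exons of 427 and 664 nt. A call in this class is therefore not always one for a long RNA. snRNA genes have near-identical copies, so which copy was contacted is uncertain.

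With bases that carried any Control tag left out, 7 of 7 snRNAs, 6 of 11 lncRNAs and 3 of 3 ribosomal RNA genes tested were higher in Nxf1 and none in Alyref. Of all 912 genes tested on exonic tags in that fit, 93 were higher in Alyref and 157 in Nxf1. The direction of these classes was the same at bases without a Control tag, although fewer of their genes remained testable. The Control libraries held only 6998 to 46384 tags, so a base without a Control tag can still carry background. Whether background contacts take part in these class differences was therefore not tested.

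Gene lists were read against the median of all genes, 0.07 on exonic tags. Of 88 cytosolic ribosomal protein genes 8 were tested, and 6 were higher in Nxf1 and none in Alyref (median log2 difference -2.13). RPS16 had 10, 59 and 51 exonic tags in Alyref and 0, 33 and 27 in Nxf1 (log2 difference -2.22, edgeR adjusted p = 1.4e-06), and RPS2 and RPS19 had log2 differences of -2.58 and -2.15. As a share of exonic tags, however, the 88 genes overlapped, at 0.545%, 0.602% and 0.612% in Alyref and 0.221%, 1.96% and 1.53% in Nxf1, where Nxf1 1 was the lowest of the 6 libraries. Of 25 intronless genes 3 were tested and all 3 were higher in Nxf1: the transcription factor genes SOX4 (-1.72, SE 0.35, edgeR adjusted p = 0.00015) and JUN (-1.61), and PURB (-0.99). Their 25-gene share was 0.132%, 0.133% and 0.138% in Alyref and 0.368%, 0.333% and 0.300% in Nxf1, without overlap, and 0.117%, 0.276% and 0.269% in Control. These genes have no exon junction, and the passed genes are the few with enough tags.

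Genes with introns known to be retained in the nucleus held calls toward Alyref. Of 13 such genes 8 were tested, and 4 were higher in Alyref and none in Nxf1 (median 0.97), against 11.3% and 18% of all genes. On all tags 11 were tested, of which CLK1 (1.67), DDX5 (1.52) and MAT2A (1.81) were higher in Alyref and NXF1 itself in Nxf1. Those called on exonic tags were the RNA helicase genes DDX39B (1.24) and DDX5 (0.98), the splicing factor gene RBM39 (1.42) and OGT, the O-GlcNAc transferase (1.62, SE 0.45, edgeR adjusted p = 0.0055). As a share of exonic tags, however, the 13 genes overlapped, at 1.07%, 0.927% and 0.960% in Alyref and 1.32%, 0.452% and 0.416% in Nxf1, where Nxf1 1 was the highest library. Control stood at 1.06%, 0.940% and 0.225%. Among 26 genes of TREX and its export partners 5 were tested. DDX39B and THOC2 (1.16) were higher in Alyref, and CPSF6 (-1.41), a 3′ end processing factor, was higher in Nxf1. Of 17 genes of the exon junction complex and nonsense-mediated decay 4 were tested and none passed, while on all tags 1 of 10, PNN (1.95), was higher in Alyref. Their joint share of exonic tags was 0.451%, 0.393% and 0.379% in Alyref and 0.294%, 0.320% and 0.256% in Nxf1.

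Most other lists held few calls. NORAD was the only one called of 4 lncRNAs tested from a list drawn up as nuclear (-1.94, edgeR adjusted p = 8.9e-05). MALAT1 (-1.12, edgeR adjusted p = 0.12) and NEAT1 (-0.18) were not called. Where NORAD RNA lies in these cells was not measured, so its call is not one for nuclear RNA. Of 4 RNA polymerase III transcripts RMRP and RNY1 (-1.56) were higher in Nxf1, and of 11 hnRNP genes 2 were higher in Nxf1, a share near the 18% of all genes. The hnRNP median turned from -0.26 to 0.14 with library sizes from all genes, and on all tags 1 of 16 was higher in Alyref (HNRNPL, 1.23) and none in Nxf1. Single members were tested of the replication-dependent histones (H3C2, -2.37, edgeR adjusted p = 0.046, and 0.065 with the replicate block), mitochondrial ribosomal proteins (MRPL42, -1.56) and respiratory chain genes (ATP5F1B, -2.22), and each was higher in Nxf1. By edgeR none of 6 SR protein genes passed on exonic tags, while 2 of 12 were higher in Alyref on all tags, SRSF7 (1.67) and SRSF10 (1.29, edgeR adjusted p = 0.041, and 0.052 with the replicate block). None of 8 chromosome 19 zinc finger genes passed, and no snoRNA host gene had enough exonic tags.

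With tags of introns included, 3369 genes were tested, and 101 were higher in Alyref (3%) and 61 in Nxf1 (1.81%). With edgeR's RLE size factors the counts were 67 and 79, without a filter on low counts 52 and 54, in a fit of the 6 libraries alone 148 and 129, and DESeq2 called 20 and 8. They also rest on the deeper Nxf1 libraries: without Nxf1 2 the counts were 1 and 1, and without Nxf1 3 they were 0 and 17 (193 toward Alyref by edgeR at an unadjusted p under 0.05), while without Alyref 2 they were 17 and 7 and without Alyref 3 they were 29 and 9. Without Alyref 1 and without Nxf1 1 they were 145 and 134, and 126 and 94. Named genes higher in Alyref included CHD3, a chromatin remodeller, and CPT1B, a mitochondrial carnitine palmitoyltransferase. CPT1B had 13, 88 and 63 tags in Alyref and 0, 0 and 3 in Nxf1 (log2 difference 3.33). Also among them were the ER chaperone gene HSP90B1 (40, 195 and 178 against 2, 5 and 7 tags, 2.59), KAT2A (2.61) and MOV10, an RNA helicase (2.53). Named genes higher in Nxf1 included MARCKSL1, of 2 exons (0, 9 and 16 against 1, 18 and 9 tags, -2.65), TUBB (-2.02) and the long-intron genes SORCS2 (-2.29) and CSMD1 (-2.21). SORCS2 stood at 0, 364 and 1701 CPM in Control and CSMD1 at 174, 273 and 696. By exon number, 0 of 14, 0 of 164, 7 of 578, 37 of 1286 and 56 of 1168 genes were higher in Alyref, and 0, 8, 17, 10 and 6 in Nxf1, with a rho of 0.34 over 3210 genes. The rho with summed intron length was -0.25 here, opposite in sign to that on exonic tags, and it was -0.03 with transcript length, -0.23 with 3′ UTR length and 0.05 with GC content.

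The tagged genes themselves were checked. NXF1 had 8, 95 and 66 tags in the Alyref libraries and 1, 39 and 32 in the Nxf1 libraries, with a log2 difference of -1.21 (SE 0.34, edgeR adjusted p = 0.031). ALYREF had 0, 26 and 14 tags in Alyref and 0, 10 and 4 in Nxf1. Of the NXF1 tags, 7, 76 and 52 in Alyref and 0, 25 and 18 in Nxf1 were exonic. Of the ALYREF tags, 0, 18 and 9 in Alyref and 0, 10 and 4 in Nxf1 were exonic. Exonic tags from the transgene and from the cells' own gene cannot be told apart. Whether the transgenes hold introns was not examined.

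The bases around exonic tags also differed. Within 10 nt of an exonic tag, uracil made up 29.7%, 29.0% and 29.4% in Alyref and 31.9%, 30.9% and 30.8% in Nxf1, with 31.4%, 31.9% and 31.4% in Control. The groups did not overlap. In the CDS alone the shares did overlap, at 26.6%, 26.3% and 26.3% against 27.3%, 25.1% and 24.8%, and so they did in 3′ UTRs.

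Of all possible pentamers, counted within 10 nt of exonic tags, 30 were higher in Alyref (2.93%) and 92 in Nxf1 (8.98%) by edgeR. Over all exonic tags the calls followed the number of uracils. All 15 pentamers with 4 uracils and the 1 with 5 were higher in Nxf1, and so were 27 of 90 with 3, while no pentamer with 3 or more was higher in Alyref. Of the 30 higher in Alyref, 20 held GA and at most 1 uracil, a feature of 204 of all pentamers and of none of the 92 higher in Nxf1. UUUUU made up 1.38%, 1.14% and 1.33% of pentamers in Alyref, 1.51%, 2.05% and 2.45% in Nxf1 and 1.70%, 2.42% and 3.35% in Control (log2 difference -0.66, SE 0.20, edgeR adjusted p = 0.036). GAAGA made up 0.213%, 0.219% and 0.220% in Alyref and 0.171%, 0.179% and 0.192% in Nxf1, with 0.216%, 0.213% and 0.176% in Control (0.25, SE 0.06, edgeR adjusted p = 0.006). Neither pentamer overlapped between Alyref and Nxf1. Within 1 kind of region the pattern was not the same. Among CDS tags alone 43 pentamers were higher in Alyref and 84 in Nxf1, but of the 122 calls over all exonic tags only 15 were called with the same sign there, and 67 had the opposite sign. UUUUU turned to a log2 difference of 0.22 (edgeR adjusted p = 0.042). Of 106 pentamers with 3 or more uracils, 21 were higher in Alyref among CDS tags and none in Nxf1, whereas over all exonic tags none were higher in Alyref and 43 in Nxf1. Among 3′ UTR tags alone none passed by edgeR, with 28 and 35 at an unadjusted p under 0.05, and 11 of the 122 had the opposite sign. The direction of the pentamer differences over exonic tags therefore does not hold within coding sequence, and the groups also differ in where their exonic tags lie. The restrictions to CDS and 3′ UTR were chosen after seeing the data. Over all exonic tags the counts were 4 and 35 without Alyref 2, 5 and 61 without Alyref 3, 5 and 36 without Nxf1 2 and 4 and 33 without Nxf1 3. Overlapping pentamers share bases and are not independent.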

How the data were processed

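The deposited count tables list crosslinked bases on hg19 with the number of tags, 1 table per library, in which the authors had merged the sequencing runs. Per the study's methods, the authors removed phiX reads with Bowtie 1.1.2, handled random barcodes with UMI-tools 0.5.3, trimmed with Reaper, kept reads longer than 15 nt, mapped unique reads with STAR 2.4.2a using Ensembl 75 junctions, and collapsed duplicates, so each count is of distinct cDNAs. Here tags on the mitochondrial chromosome were left out and the rest were assigned by strand to GENCODE 44 genes mapped to GRCh37, and tags in more than 1 gene were left out of gene counts. There were 0 further columns of per-sample values.

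Genes, exonic tags and pentamers were tested with edgeR 4.0.16 (R 4.3.3) by a quasi-likelihood fit over all 12 libraries after filterByExpr and TMM, and parts of genes with diffSpliceDGE, with Benjamini-Hochberg adjustment and a threshold of 0.05. Library shares were compared by exact permutation of 3 against 3 libraries with Python 3.11.15. DESeq2 1.42.0, RLE factors, no filter, 6 libraries only, a replicate block, each base counted once, bases with Control tags left out and each library left out were alternatives. On simulated counts, 98.0% of genes changed 4-fold upward and 20% of those changed 2-fold were recovered among 2733 genes, with 0.117% of unchanged genes called. For exonic counts of 615 genes these values were 100% and 38.6%, with 1.30% of unchanged genes called. Of decreases, 24.3% of 2-fold and 88.6% of 4-fold were recovered among genes, and 50% and 87.5% on exonic counts. The region test was uneven: among 367 gene regions, 10% of 4-fold and 23.1% of 8-fold increases but 57.1% and 75% of such decreases were recovered, and among 331 exon positions 37.5% and 50% of increases and 20% and 100% of decreases. All simulations used the same spread, which was below that fitted to the real parts of genes (edgeR dispersion 0.0964 for regions and 0.0951 for exon positions). They also kept only features with at least 50 tags, so recovery in the real parts may be lower.

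The libraries compared, the measures and the gene lists were chosen with earlier results of these data known. Named genes were, in each direction and fit, the 10 called genes with the largest fold among those with at least 50 tags and no overlap between replicates 2 and 3 of the groups, with small and repetitive RNA classes named apart, and the members of the lists. Further genes in the text were chosen after their values were seen. Samples were grouped by their labels. Per the labels, replicate 2 of every group ran on HiSeq lanes 5 and 6 and replicates 1 and 3 on lanes 7 and 8, so a replicate number marks runs shared across groups and lanes are balanced between Alyref and Nxf1. The correlation of same-numbered deviations was between -0.107 and 0.213. Intervals and count limits cover counting error only.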

Additional observations from a re-analysis of the deposited data

How the results depend on the processing

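Results follow the order higher in Alyref, then higher in Nxf1. For all tags (101 and 61), a fit of the 6 libraries alone gave 148 and 129 calls, no filter 52 and 54, RLE factors 67 and 79, DESeq2 20 and 8, and library sizes from all genes 165 and 64. For exonic tags (102 and 162), these alternatives gave 80 and 105, 517 and 213, 89 and 189, 44 and 127, and 235 and 103. With no filter and with library sizes from all genes most exonic calls were higher in Alyref, and the median of all genes was 0.56 and 0.48 on the log2 scale. Regions within genes (14 and 3) gave 53 and 25 in the 6 libraries alone, 50 and 21 without bases that carry a Control tag, and 1 and 0 without a filter, where 708 lay at an unadjusted p under 0.05 toward Nxf1. Exon positions (14 and 2) gave 52 and 21, 45 and 16, and 0 and 0 (1617 and 679 at an unadjusted p under 0.05), and with each base counted once 19 and 6. Pentamers (30 and 92) gave 0 and 0 in 3′ UTRs alone, and UUUUU turned from -0.66 to 0.22 in the CDS alone. The cause of these changes was not tested.

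Leaving out 1 library each gave 0 to 145 and 1 to 134 calls for all tags, 41 to 193 and 96 to 248 for exonic tags, 0 to 30 and 0 to 16 for regions, 0 to 27 and 0 to 13 for exon positions, and 4 to 42 and 33 to 88 for pentamers. Without Nxf1 2, 116 of the 264 exonic calls were kept and 2 had the opposite sign, and without Nxf1 3, 142 were kept. The all-tags count of 0 came without Nxf1 3, with 193 genes at an unadjusted p under 0.05. Of the regions, 0 and 0 passed without Alyref 2 (36 and 14 at an unadjusted p under 0.05), Nxf1 2 (59 and 34) and Nxf1 3 (18 and 13). Of the library measures, the differences that changed sign when a library was left out ran from -5.98 to 0.98 for 3′ UTR tags, -2.87 to 0.639 for antisense tags, -3.57 to 0.983 between genes, -0.132 to 0.14 for pseudogenes, -6.39 to 11.7 for exons among lncRNA tags, -0.033 to 0.15 for middle to first exon density, -0.0589 to 0.896 within 100 nt of the 5′ splice site, -1.88 to 1.02 for transcripts of 1.5 to 3 kb, -1.28 to 2.81 for those of 6 kb or more, -0.664 to 0.139 for GC of 55 to 60%, -0.253 to 0.803 for GC of 60% or more, and -0.468 to 0.107 for mean GC. All 12 overlapped between the groups.

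Replicate numbers share sequencing lanes across groups, but the deviations of same-numbered libraries correlated at only 0.0995, 0.0127 and 0.213 for all tags and at -0.107, -0.0339 and -0.0676 for exonic tags. With a replicate block the counts were 100 and 85 for all tags, 102 and 155 for exonic tags, 12 and 0 for regions (40 toward Nxf1 at an unadjusted p under 0.05), 13 and 0 for exon positions (37) and 42 and 111 for pentamers. Of the genes and parts named in the text, SRSF10, H3C2, the CDS of NAA25 and POLA1, the middle exons of POLA1 and the introns above lost their call under the block. An exact sign-flip test of 3 pairs cannot go below p = 0.25. The 81133 to 630540 tags of the Alyref libraries against 8105 in Nxf1 1 limit what can be seen in that library.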

Other observations

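Intronic contacts also differed. Of intronic tags, first introns held 21.9%, 26.5% and 26.5% in Alyref 1, 2 and 3 and 29.0%, 29.2% and 30.0% in Nxf1 1, 2 and 3, with 28.8%, 26.7% and 28.2% in Control. The stretch within 100 nt of the 3′ splice site held 6.12%, 4.05% and 4.37% in Alyref and 3.03%, 3.57% and 2.48% in Nxf1, with 3.36%, 4.97% and 2.03% in Control. Neither measure overlapped between Alyref and Nxf1. That within 100 nt of the 5′ splice site overlapped, at 4.16%, 2.67% and 2.25% against 2.92%, 2.81% and 1.82%. The density of tags in introns annotated as retained over other introns, as a log2 ratio, was 3.32, 2.80 and 2.63 in Alyref and 2.71, 2.49 and 1.76 in Nxf1, which overlapped.

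Past the annotated gene end, the next 5 kb held 3.76%, 2.76% and 3.09% of all tags in Alyref and 4.54%, 4.72% and 4.91% in Nxf1, with 4.02%, 5.24% and 5.84% in Control. Genes with a 3′ UTR of 2 kb or longer took 43.2%, 44.2% and 44.8% of exonic tags in Alyref and 50.5%, 47.9% and 49.9% in Nxf1, and genes with a 3′ UTR under 500 nt took 16.9%, 16.8% and 16.8% against 12.3%, 15.7% and 14.9%. None of these 3 shares overlapped between Alyref and Nxf1, and each reached the smallest exact permutation p of 0.1.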
